A study of Mus musculus with 4 samples.

Results

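The response of Batf2-/- macrophages to R848 was set against that of wild-type macrophages gene by gene, as a difference of responses. This is the log2 change from 0 h to 8 h in the knockout minus the same change in the wild type, so a value of 1 means that the knockout changed by 2-fold more in the upward direction. A probe was used when it was well above background on all 4 arrays, which held for 33098 of 56605 probes, and a gene was read at its brightest such probe. This left 17159 of the 25107 named genes on the arrays. The difference of responses is also the knockout minus wild-type difference at 8 h minus that at 0 h. A gene was therefore assigned to the 0 h arrays or to the 8 h arrays when that time's term was at least 2 times the other's, and otherwise to both times.

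The cells were bone marrow-derived macrophages from male mice on the C57BL/6J background, grown with macrophage colony-stimulating factor. The 4 groups were wild type untreated (0 h), wild type with R848 at 100 ng/ml for 8 h, Batf2-/- untreated and Batf2-/- with the same R848 treatment. Each group had 1 array of total RNA, and the labels name neither the number of mice nor littermate controls. With no replicate, no test or p-value is given, a gene is counted at a 2-fold difference, and no difference below has a replicate check.

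R848 (resiquimod) is a small agonist of TLR7, an endosomal receptor for single-stranded RNA. TLR7 signals through MyD88 to NF-kB and interferon regulatory factors, and the type I interferon that follows acts back on the cells through its receptor to switch on interferon-stimulated genes. Macrophages also keep a low level of these genes on at rest. Batf2 is a basic leucine zipper factor of the AP-1 family that is itself induced by interferon and works with IRF1 in macrophages.

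Batf2 was read by 1 probe. Its signal was 34.1 in wild type at 0 h, 94.8 in wild type at 8 h, 26.7 in knockout at 0 h and 10.8 in knockout at 8 h. The last value was not well above background, so Batf2 is no member and has no difference of responses. At 0 h the genotypes lay close together at this dim probe, and the labels do not say which part of the gene was deleted. The 75th percentile of the signal, to which all levels below refer, was 252 to 278 on the 4 arrays, and 60.6% to 71.4% of probes were well above background. Of 16 macrophage identity genes 15 were members, among them Csf1r, Adgre1 and Cd68, and none differed 2-fold in its response. The difference of responses had a median of -0.02 over all member genes, with an SD over genes of 0.47, and 79.1% of genes lay within 0.5 of 0. Over 289 probes printed as 10 spots each, the spread between spots gave the difference of responses a median SD of 0.101. It was 0.255 over the 14 of these probes that lay below the median level of all member genes. This SD covers error within an array and no difference between cultures.

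In all, 409 genes (2.38% of 17159) had a response at least 2-fold larger in the knockout and 352 (2.05%) one at least 2-fold smaller. Larger and smaller are signed here, as more upward and more downward, and do not give the size of a change. Of the larger, 125 fell at least 2-fold in wild type and changed less than 2-fold in the knockout. Of the smaller, 121 fell at least 2-fold in the knockout and changed less than 2-fold in wild type. The 0 h arrays gave 154 of the larger and 137 of the smaller differences, the 8 h arrays gave 129 and 116, and both times gave the other 126 and 99. These totals held many dim probes. When the genes were cut by mean level into 4 groups of equal size, 10.2% of the dimmest group passed 2-fold in either direction, against 0.839% of the brightest. On 113 of the larger and 108 of the smaller genes, 1 array stood at least 2-fold apart from the other arrays, which lay within 2-fold of each other. Some lay in small areas of an array, where the 8 touching spots shared a deviation of over 0.5 on the log2 scale: 39 of the larger and 53 of the smaller. Among genes that reached the 75th percentile on at least 1 array and lay outside such areas, 141 were larger and 53 smaller. When probes were held to these conditions before a gene's brightest was taken, the counts were 145 and 55 of 9462 genes. Of the 141, 57 were given by the 0 h arrays, 42 by the 8 h arrays and 42 by both.

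**Figure D1:**
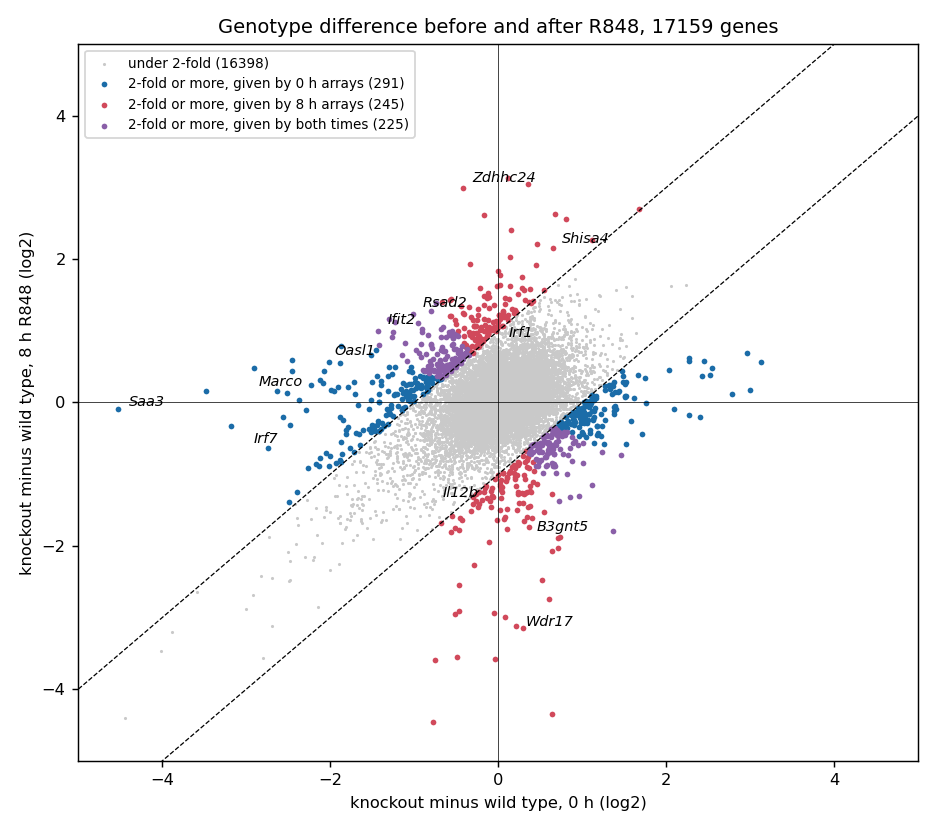
Each point is 1 of 17159 genes, with the knockout minus wild-type difference (log2) at 0 h on the x axis and at 8 h with R848 on the y axis, 1 array per group. Dashed lines mark a 2-fold difference of responses. Blue points to the left, led by Saa3, were lower in the knockout at 0 h and close to the wild type at 8 h. Purple points differed at both times, above the upper dashed line, as Ifit2 and Rsad2, with the knockout lower at 0 h and higher at 8 h, and below the lower line with the reverse, and red points differed at 8 h.

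**Figure D2:**
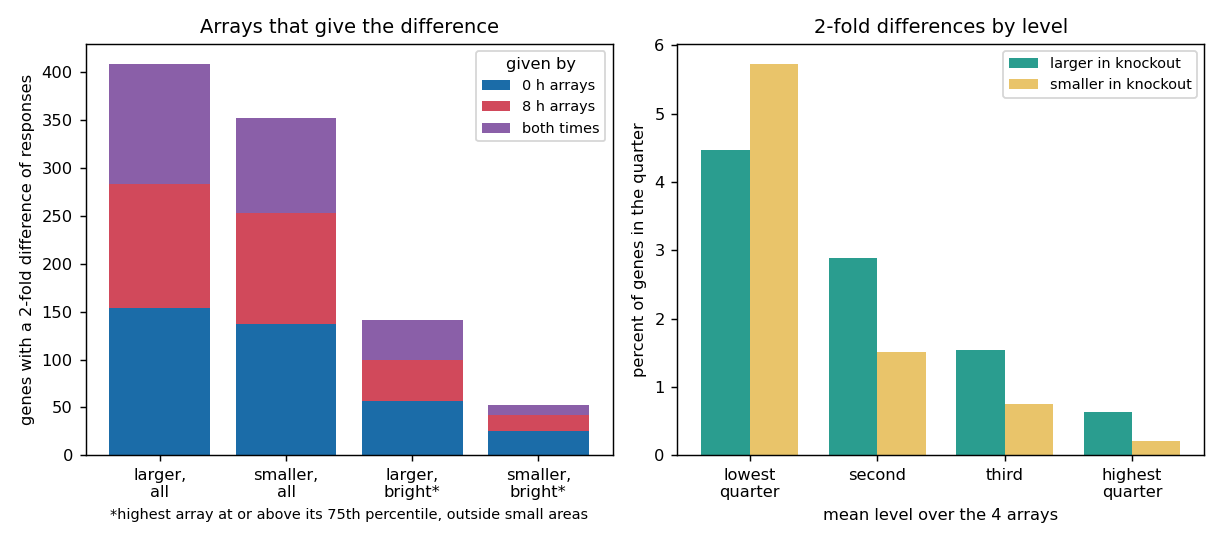
Left, number of genes with a 2-fold difference of responses, split by the arrays that give it, over all member genes (409 larger, 352 smaller) and over bright genes outside small areas (141 larger, 53 smaller). Right, percent of genes past 2-fold in each of 4 groups of genes cut by mean level over the 4 arrays. Dim genes passed 2-fold more often, and smaller responses outnumbered larger ones in the dimmest group, with 246 against 192.

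Type I interferon-stimulated genes responded more in the knockout, and their median level there was lower at 0 h. Of the 37 members among 40 listed genes, 13 had a response at least 2-fold larger in the knockout and none a smaller one. Over all genes 2.38% were larger and 2.05% smaller. The count of 13 came to 12 without the small areas and to 10 under normexp background correction. Normexp adds an offset of 50 to every signal and so draws dim genes toward 0. The median difference of responses of the 37 was 0.71, with 34 above 0. The median of all genes was -0.02 and 8197 of 17159 lay above 0. In both genotypes 34 of the 37 rose at least 2-fold with R848, where 5.61% of all genes did in wild type and 6.22% in the knockout. The median level was 1.02 in wild type at 0 h and 0.47 in knockout at 0 h, against 3.18 in wild type and 3.35 in knockout at 8 h. At 0 h, 10 of the 37 were at least 2-fold lower in the knockout, where 2.38% of all genes were. This count fell to 4 under normexp and to 7 at the mean over probes. At 8 h, 3 of the 37 were at least 2-fold higher in the knockout, where 1.44% of all genes were. The 0 h arrays gave 5 of the 13, 1 came from the 8 h arrays and 7 from both times.

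The 5 given by the 0 h arrays were Oasl1, Ifit3, Mx1, Rtp4 and Xaf1. Oasl1, an inhibitor of Irf7 translation, stood at -1.05 in wild type at 0 h, 1.90 in wild type at 8 h, -3.07 in knockout at 0 h and 2.46 in knockout at 8 h. Its difference of responses was 2.58, or 5.99-fold, with a knockout minus wild-type difference of -2.02 at 0 h and 0.56 at 8 h. Ifit3, which encodes an antiviral protein with tetratricopeptide repeats, stood at 1.91, 4.18, 0.02 and 4.73 in the same order, a difference of 2.44. For Ifit3 the knockout passed from well below the wild type to somewhat above it. The antiviral GTPase Mx1 differed by 2.19 over 2 probes with an SD of 0.71 between them. Rtp4 differed by 1.48 but lay in a small area of an array, and the 3 probes of Xaf1 (1.27 at the brightest) did not all go the same way.

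The 7 given by both times were lower in the knockout at 0 h and higher at 8 h, which the rule for both times requires of a larger response. Ifit2 stood at 0.07 in wild type at 0 h, 3.05 in wild type at 8 h, -1.36 in knockout at 0 h and 4.04 in knockout at 8 h, a difference of 2.42. Rsad2, which encodes the antiviral enzyme viperin, stood at 2.77, 4.98, 1.75 and 6.21 in the same order. Its difference was 2.24 at the brightest of 2 probes, with an SD of 0.62 between them and 1.80 at their mean. These genes crossed over, with the knockout lowest at rest and highest after R848. The schlafen gene Slfn1 stood at -1.97, -0.09, -3.21 and 1.04, a difference of 2.36. Ifit1 (2.18), Cmpk2 (1.88), Oasl2 (1.27) and Ifi205 (1.24) followed the same order of arrays. Mx2, the 1 gene given by the 8 h arrays, was at -3.87 and -3.90 in wild type and knockout at 0 h and at -1.41 and -0.41 at 8 h, a difference of 1.03.

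**Figure D3:**
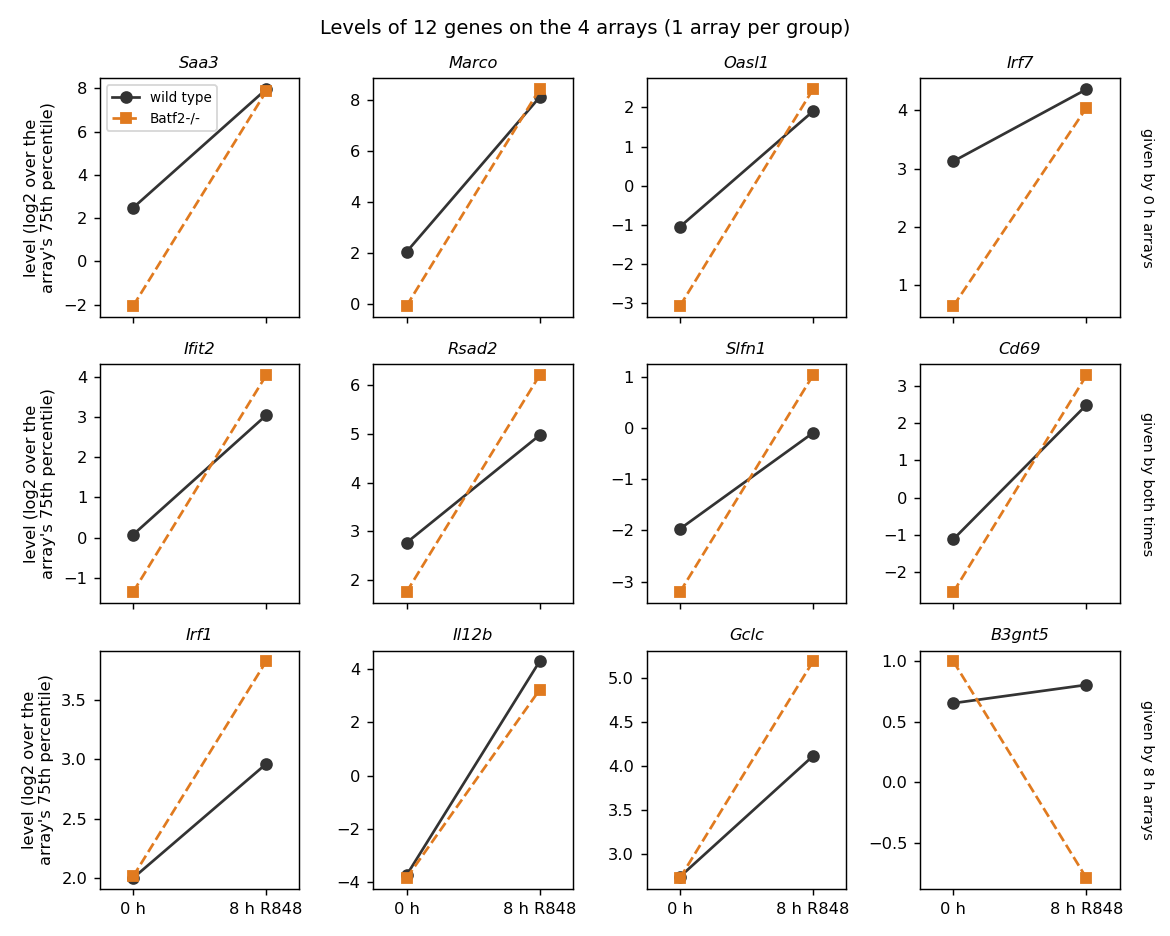
Levels (log2 over the array's 75th percentile, y axes differ between panels) of 12 genes at 0 h and after 8 h with R848, wild type as filled circles and knockout as squares, 1 array per point. In the top row the lines start apart and come close at 8 h, in the middle row they cross, and in the bottom row they start close and part at 8 h. Rows were chosen by the arrays that give the difference, so these shapes follow from the choice.

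Many interferon-stimulated genes carry an interferon-stimulated response element near their start, read here as GAAANNGAAA on either strand. Of the 37 members, 27 had a promoter window in the RefSeq table (build GRCm38.p6, 250 bases before to 50 after each gene's start). The element was held by 16 of these 27 (59.3%), against 3.87% of the 12730 member genes with a window. Of the 13 with a larger knockout response, 10 had a window and 4 held the element. The upstream 250 bases of these 4 and of Saa3, the gene with the largest upward difference, are shown 5′ to 3′ with matches in capitals. Capitals also mark the AP-1 motif TGANTCA, the kind of site that BATF family proteins bind with Jun partners.
Ifit1: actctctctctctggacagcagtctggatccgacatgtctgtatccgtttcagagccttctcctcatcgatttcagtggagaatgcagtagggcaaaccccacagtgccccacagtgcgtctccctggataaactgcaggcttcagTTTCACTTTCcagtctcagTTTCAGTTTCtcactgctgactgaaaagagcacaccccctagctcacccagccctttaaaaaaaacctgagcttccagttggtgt
Ifit3: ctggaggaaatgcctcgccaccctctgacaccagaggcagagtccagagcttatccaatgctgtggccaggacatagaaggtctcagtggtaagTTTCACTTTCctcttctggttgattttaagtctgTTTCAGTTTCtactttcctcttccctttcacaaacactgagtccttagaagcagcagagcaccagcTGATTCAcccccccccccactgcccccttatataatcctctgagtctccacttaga
Rsad2: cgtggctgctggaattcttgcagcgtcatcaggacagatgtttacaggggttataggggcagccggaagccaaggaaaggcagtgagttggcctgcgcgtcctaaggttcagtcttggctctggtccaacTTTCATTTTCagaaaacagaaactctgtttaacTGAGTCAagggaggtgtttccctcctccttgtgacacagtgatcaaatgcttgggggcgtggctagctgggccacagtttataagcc
Ifi205: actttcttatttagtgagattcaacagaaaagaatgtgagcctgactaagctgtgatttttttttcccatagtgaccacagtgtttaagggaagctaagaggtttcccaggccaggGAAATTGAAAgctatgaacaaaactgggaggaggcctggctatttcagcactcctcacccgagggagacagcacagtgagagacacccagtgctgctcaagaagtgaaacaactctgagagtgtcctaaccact
Saa3: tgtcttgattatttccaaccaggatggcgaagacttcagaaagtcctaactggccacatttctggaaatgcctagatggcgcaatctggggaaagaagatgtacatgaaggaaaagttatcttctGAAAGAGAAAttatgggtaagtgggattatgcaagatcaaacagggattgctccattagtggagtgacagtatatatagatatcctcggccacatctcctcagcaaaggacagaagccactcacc
The windows are chr19:34640639-34640888 (+) for Ifit1, chr19:34583279-34583528 (+) for Ifit3, chr12:26456453-26456702 (-) for Rsad2, chr1:174031756-174032005 (-) for Ifi205 and chr7:46715677-46715926 (-) for Saa3. Ifit1 and Ifit3 each held 2 response elements and the other windows 1 each. Ifit3 and Rsad2 also held TGANTCA, which begins 56 and 87 bases before the start.

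Over all 409 genes with a larger knockout response, 292 had a window and 9.25% of these held the response element, against 3.87% of the 12730 member genes with a window. The share was 12.8% of 109 genes given by the 0 h arrays, 5.21% of 96 given by the 8 h arrays and 9.20% of 87 given by both, and 4.86% of 247 genes with a smaller response. The motif TGANTCA occurred in 10.3% of the larger, 8.10% of the smaller and 7.31% of all member genes with a window. An NF-kB motif read as GGGANNTTCC occurred in 1.71%, 1.21% and 1.74%. A match describes letters in a window and is not evidence of a bound site.

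Several other interferon-linked groups also had medians above that of all genes, as did most of the lists of other kinds. The 10 members among interferons and their receptors had a median of 0.11, with 6 above 0 and none past 2-fold. That median came to 0.002 over the 9 that reached the 75th percentile on at least 1 array. Irf7, the factor that amplifies type I interferon, was the largest among 12 interferon and STAT transcription factors and the 1 past 2-fold. It stood at 3.13 in wild type at 0 h, 4.36 in wild type at 8 h, 0.65 in knockout at 0 h and 4.05 in knockout at 8 h. Its difference was 2.16, given by the 0 h arrays, with 2 probes that differed by an SD of 0.35. Irf1, the partner of Batf2, behaved otherwise: it stood at 2.003 and 2.017 in wild type and knockout at 0 h, and at 2.96 and 3.82 at 8 h. This difference of 0.85, given by the 8 h arrays, was under 2-fold, and its 2 probes differed by an SD of 0.014. Stat2 (0.89) was given by both times, although not all its probes went the same way.

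Interferon-gamma-inducible GTPases, which act against intracellular pathogens, had a median difference of 0.88 over 11 members, 10 of them above 0. Gbp7 (1.21, given by both times) and Igtp (1.20, given by the 0 h arrays) passed 2-fold, and under normexp 1 of the 11 did. Over all genes 2.38% had a larger response. All 16 members of the MHC class I and antigen processing list lay above 0 (15 of 16 in the authors' scaled table), with a median of 0.35. Only Tap1, a subunit of the peptide transporter, passed 2-fold there, with levels of 0.19, 1.22, -0.96 and 1.26 in wild type at 0 h and 8 h and knockout at 0 h and 8 h. Its difference was 1.19, from the 0 h arrays, and its 2 probes differed by an SD of 0.045, but under normexp it was under 2-fold. The class II presentation genes had lower knockout levels at both times, with median differences between genotypes of -1.03 at 0 h and -0.71 at 8 h. Their responses therefore differed little, with a median of 0.17 over 11 members and none past 2-fold.

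**Figure D4:**
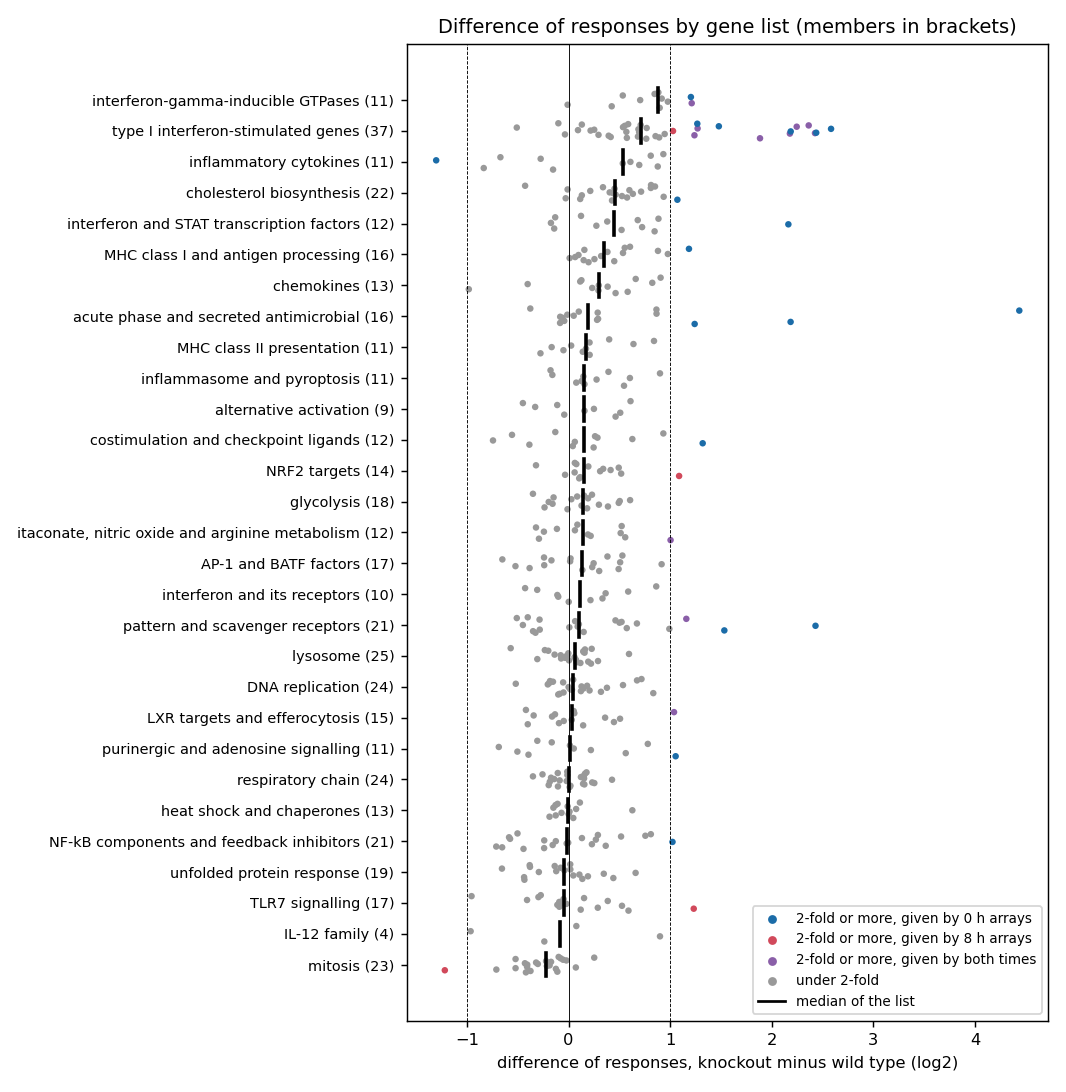
Difference of responses (log2, knockout minus wild type) of every member gene of 29 lists, 1 point per gene, ordered by the list median (black bars), with the number of members in brackets. Coloured points passed 2-fold (dashed lines). The interferon-gamma-inducible GTPases and the type I interferon-stimulated genes stand at the top with medians of 0.88 and 0.71. The other interferon lists lie lower, at 0.45 for transcription factors and 0.11 for interferon and its receptors. The mitosis list stands at the bottom with -0.22, and most lists lie near 0.

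The largest upward difference of a bright gene belonged to Saa3, an acute phase protein that macrophages secrete. It stood at 2.48 in wild type at 0 h, 7.95 in wild type at 8 h, -2.06 in knockout at 0 h and 7.85 in knockout at 8 h. The difference was 4.44, or 21.6-fold, given by the 0 h arrays, since the knockout minus wild-type difference was -4.53 at 0 h and -0.10 at 8 h. Both 8 h signals, 65700 and 58300, were very bright, and neither spot was marked as saturated. Of the 16 acute phase and secreted antimicrobial members, 3 passed 2-fold, Saa3 and the complement genes Cfb (2.19) and C3 (1.24), and the 0 h arrays gave all 3. All 3 were larger, where 2.38% of all genes were. The list's median was 0.19. In it, 9 of 16 were at least 2-fold lower in the knockout at 0 h, where 2.38% of all genes were. At 8 h 3 of 16 still were, where 1.89% of all genes were. Those 3, Hp, Chil3 and Pglyrp1, were also lower at 0 h, and their responses differed by 0.28, -0.04 and -0.01.

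Among 21 pattern and scavenger receptors, 3 passed 2-fold, all larger, where 2.38% of all genes were. Marco, a scavenger receptor, stood at 2.05 in wild type at 0 h, 8.12 in wild type at 8 h, -0.07 in knockout at 0 h and 8.43 in knockout at 8 h. The difference of 2.43 came from the 0 h arrays, after which both genotypes reached about the same height. Clec4e, the mycobacterial cord factor receptor Mincle, differed by 1.53 from the 0 h arrays, and Tlr6 by 1.16 from both times. Under normexp 1 of the 21, Marco, passed 2-fold. The list's median was 0.10, with 14 of 21 above 0.

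Further genes given by the 0 h arrays were Ifi206, a HIN-200 family gene with a difference of 2.41, and Cd40, a costimulatory receptor, with 1.32. The activation marker Cd69, with levels of -1.12, 2.49, -2.53 and 3.29, differed by 2.21 from both times. Itpr1, a calcium channel of the endoplasmic reticulum, had a difference of 2.52 over 3 probes with an SD of 1.06, and only its wild-type 0 h array stood apart. Coro2b (2.89) lay in a small bright area and came to 0.86 at a probe outside such areas. Several more were named after their values were seen. The fatty acid receptor Gpr84 differed by 2.003, the cytokine Il1f9 (IL-36 gamma) by 1.82 and the lipase Aoah, which inactivates endotoxin, by 1.04 with 3 probes that differed by an SD of 0.019. All 3 rose at least 2-fold in both genotypes from a lower 0 h level in the knockout.

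Among genes given by the 8 h arrays the largest larger response was that of Zdhhc24, of the palmitoyltransferase family, which stood at -0.35 and -0.77 in wild type and knockout at 0 h and at -0.97 and 2.02 at 8 h. Its difference of 3.42 rests on 1 probe on 1 array. Prkd2, a protein kinase D, stood at -0.01, -0.64, -0.45 and 0.70 in wild type at 0 h and 8 h and knockout at 0 h and 8 h, a difference of 1.79. Shisa4 differed by 1.50 over 2 probes with an SD of 0.15 (0.82 under normexp), and its knockout 8 h array stood apart. Tmem273 (1.60) had a low wild-type 8 h array alone, the noncoding RNA Acss2os differed by 1.55, and Vsig2 (1.47) lay in a small area. From the lists came Gclc, which catalyses the first step of glutathione synthesis and is a target of NRF2. It stood at 2.74 and 2.73 in wild type and knockout at 0 h and at 4.11 and 5.18 at 8 h, a difference of 1.09. Cnpy3, a chaperone that Toll-like receptors need to leave the endoplasmic reticulum, stood at 2.46, 1.87, 2.15 and 2.78, a difference of 1.23. Met, the receptor for hepatocyte growth factor, was named after its values were seen, and it differed by 1.09 with 2 probes at an SD of 0.20.

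Smaller knockout responses were fewer among bright genes, and many rested on 1 array. Smaller means more downward, so genes that fell further in the knockout are among them. B3gnt5, an enzyme of glycosphingolipid synthesis, stood at 0.66 in wild type at 0 h, 0.81 in wild type at 8 h, 1.0 in knockout at 0 h and -0.79 in knockout at 8 h, a difference of -1.94 carried by a low knockout 8 h array. Fdxr (-1.51) had the same pattern. Tmem150b fell at least 2-fold in both genotypes and differed by -1.31, or -0.93 under normexp.

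Il1rn, the soluble antagonist of the IL-1 receptor, was the 1 gene past 2-fold among the 11 inflammatory cytokine members. The cytokine Il1f9, whose larger response is given above and also passed 2-fold, was not among these members. The list names that gene Il36g, and it was left out because the names differ. Of the 17 listed names 16 were found on the arrays. Il1rn stood at 0.68 in wild type at 0 h, 3.81 in wild type at 8 h, 1.70 in knockout at 0 h and 3.53 in knockout at 8 h. The knockout started higher and ended about level, a difference of -1.30 from the 0 h arrays with 2 probes at an SD of 0.13. At 0 h 1.28% of all genes were at least 2-fold higher in the knockout. Neurod2 (-2.28), Entpd7 (-2.07) and Gpatch8 (-1.69) each had a knockout 0 h array that stood apart alone. At the mean of 4 probes Gpatch8 came to -0.54, and at the mean of 2 probes Entpd7 came to -1.33. Pnpla6 (-1.57, both times) and Krtap31-2 (-1.54, 0 h arrays) rest on 1 probe each, and Pnpla6 came to -0.88 under normexp. Wdr17 (-3.33), Abcb8 (-2.44), Cdhr5 (-1.87), Rab11fip5 (-1.70) and Adam32 (-1.63) lay in small areas. At a probe outside them Abcb8 came to -0.36.

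The responses of the cytokines for which TLR7 agonists are best known differed by less than 2-fold in the main setting. Il6 was not a member and is not covered. Il12b, the p40 subunit of IL-12 and IL-23, stood at -3.74 in wild type at 0 h, 4.29 in wild type at 8 h, -3.85 in knockout at 0 h and 3.22 in knockout at 8 h. Its difference was -0.96, given by the 8 h arrays, and it came to -1.08 under normexp. Il12a, the p35 subunit, went the other way with 0.90, from the 0 h arrays. Il10 differed by -0.83 from the 8 h arrays, with levels of 2.12 in wild type and 0.95 in knockout at 8 h, and came to -1.002 under normexp. The 8 h levels of Il12b and Il10 were at least 2-fold lower in the knockout, by -1.07 and -1.18. At 8 h 1.89% of all genes were. Tnf (0.81) and Il1b (0.61) were given by both times, and Nos2, the inducible nitric oxide synthase, differed by 0.51. The 11 inflammatory cytokine members had a median of 0.53, with 6 above 0 and 5 below. Il1f9 was left out of them through its name. The median of the 11 came to 0.22 under normexp and to 0.18 over the 10 members in the authors' scaled table. It came to -0.15 over the 9 that reached the 75th percentile on at least 1 array, so its sign rests on dim genes. The 13 chemokine members had a median of 0.30 and none past 2-fold, from -0.98 for Ccl4 to 0.91 for Cxcl5.

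The signalling lists between receptor and cytokine lay near the median of all genes. The 21 NF-kB components and feedback inhibitors had a median of -0.02, and 1 of them, the inhibitor Nfkbie, passed 2-fold with 1.02. The 17 TLR7 signalling members had a median of -0.05 with Tlr7 itself at -0.30 and Myd88 at 0.39. The 17 AP-1 and BATF members had a median of 0.14 and none past 2-fold. In them Batf3 differed by -0.52, Batf by 0.23, Jun by 0.51 and Fosb by 0.92.

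Cholesterol synthesis genes rose more often in the knockout. Of 22 members, 1 rose at least 2-fold with R848 in wild type and 10 did in the knockout, where 5.61% and 6.22% of all genes did. The median response was 0.49 in wild type and 0.93 in the knockout, the latter close to the 2-fold cut. The difference of responses was above 0 in 19, with a median of 0.46, and passed 2-fold in 1. The median genotype difference was -0.17 at 0 h and 0.24 at 8 h, so both times contributed. The sterol regulatory element, read as TCACNCCAC, occurred in 1 of 16 members with a promoter window and in 1.43% of the 12730 member genes with a window.

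Mitosis genes fell more often in the knockout. Of 23 members, 8 fell at least 2-fold in wild type and 14 in the knockout, where 6.03% and 5.61% of all genes did. The median response was -0.92 in wild type and -1.19 in the knockout, on either side of the 2-fold cut. The median genotype difference was -0.34 at 0 h and -0.60 at 8 h. The difference of responses was below 0 in 21, with a median of -0.22. Under normexp that median came to -0.08, with 5 of 23 above 0. Bub1, a spindle checkpoint kinase, was the 1 past 2-fold at -1.22, with levels of 0.17, -0.70, -0.26 and -2.35, and under normexp none passed. Its paralogue Bub1b differed by -0.71. The 24 DNA replication members did not share this, with a median of 0.04.

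The other lists each had at most 1 gene past 2-fold, and their medians lay between -0.08 and 0.16. The genes were Acod1, which makes itaconate (1.004), Scd2, a stearoyl-CoA desaturase (1.04), Ada, adenosine deaminase (1.05), and the genes Cd40 and Gclc already described. Lysosomal genes (25 members), glycolysis (18), the respiratory chain (24), the unfolded protein response (19) and chaperones (13) had none. Under normexp Nfkbie, Acod1, Scd2, Ada, Cd40 and Cd79b no longer passed 2-fold. Acod1 did not pass under median or quantile scaling or in the authors' scaled table either.

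Markers of several other cell types differed between the cultures at both times. The summed level of 12 granulocyte precursor genes, such as Mpo, Elane and Ctsg, was 124 in wild type at 0 h, 35.4 in wild type at 8 h, 13.1 in knockout at 0 h and 5.82 in knockout at 8 h, in multiples of the 75th percentile. At both times 11 of the 12 were at least 2-fold lower in the knockout, where 2.38% of all genes were at 0 h and 1.89% at 8 h. The responses of the 12 differed little, with a median of 0.28 and none past 2-fold. The sums were 23.5, 14.1, 3.16 and 3.36 for 13 basophil and mast cell genes and 222, 231, 91.5 and 91.2 for 8 monocyte genes. Of the 13, 12, 9, 11 and 6 were above background in the same order, so these sums include values near the floor. Of 7 monocyte members, 4 were at least 2-fold lower in the knockout at each time and 1 at least 2-fold higher at 8 h. Dendritic cell genes (51.9, 60.9, 50.8 and 61.9), B and plasma cell genes (8.02, 6.18, 7.77 and 6.83) and stromal genes (18.4, 13.2, 18.9 and 16.2) lay closer together. The sums were 741, 702, 567 and 543 for neutrophil genes and 12.9, 12.8, 10.7 and 10.9 for T and NK cell genes. Platelet and erythroid genes summed to 50.8, 61.7, 33.9 and 82.1, and 2 of 9 members, Ppbp (1.19) and Gp9 (1.55), had a larger response from the 0 h arrays (1 of 9 under normexp). Among neutrophil genes Cxcr2 did (1.34), and among B cell genes Cd79b (1.16). Of 6 T and NK cell members 1, Cd8a, had a smaller one (-1.98). Over all genes 2.38% had a larger response and 2.05% a smaller one. Fewer cells of a type and less RNA per cell cannot be told apart in such samples. The part that these lower markers have in the low 0 h levels of Saa3, Marco, Irf7 and the interferon-stimulated genes was not tested.

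The background rule removed some of the genes with the sharpest induction. Above background on both 8 h arrays but not on both 0 h arrays were 152 genes, and the reverse held for 1681. Cxcl10, an interferon-induced chemokine, had signals of 37.1 in wild type at 0 h, 258 in wild type at 8 h, 10.6 in knockout at 0 h and 759 in knockout at 8 h, and its knockout 0 h signal was not well above background. For Il6 the signals were 17.4, 2640, 3.34 and 2890, with the third not above background. The interferon-stimulated gene Ifi44 had 36.0, 258, 3.75 and 207, again with the third not above background. Ifnb1, the interferon itself, was above background at 8 h alone, with 20.3 in wild type and 30.6 in knockout. For these genes no difference of responses is given.

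Where a gene had several probes, they often disagreed. Of the larger genes with 2 or more member probes, 68 of 111 had all probes on the same side of 0, and of the smaller ones 29 of 54. Over bright genes outside small areas the counts were 40 of 59 and 13 of 22. The SD between probes of a gene had a median of 0.259 over 6650 genes and of 0.728 over the 165 with a 2-fold difference. By probe, 895 of the 33098 were larger and 800 smaller, among them 174 and 153 of the 5819 with no gene name.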

How the data were processed

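Total RNA was labelled with Cy3 and hybridised to 1-colour Agilent arrays, 4 on 1 slide read in 1 scan. Per the file headers, spot intensity values came from Agilent Feature Extraction (11.5.1.1 in the submitters' processing notes), and the deposited processed signal is background-subtracted with no scaling between arrays. The headers annotate the probes to mm9. A second deposited file gives scaled intensity, each column of it 1 constant factor times the processed signal (3.72 to 4.13), and that table's log2 ratios were not used.

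Control spots and outlier spots (70 to 115 per array) were left out, and none was saturated. Spots of a probe were averaged as log2, each array's 75th percentile was subtracted, and a probe counted as well above background where at least 0.5 of its spots were. Probes were named from the authors' table, updated to GRCm38.p6 (40458 of 56605 named). Python 3.11.15, pandas 2.3.3 and limma 3.58.1 were used, and the computation was tested on simulated data. Promoter windows were taken from RefSeq.

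Genes named were a panel of Batf2 and cytokine and regulator genes, the 12 largest differences per direction, the 6 largest per direction given by each time, and list members, of which a few are not reported here. The 12 and 6 were taken among bright genes whose probes go the same way outside marked areas. The lists and named genes were chosen with earlier results of these data known. Alternatives were median and quantile scaling, normexp (offset 50, on the median signal, since the mean signal was not used here), the authors' table, other filters and probe rules, and areas of the array. The small areas were added after seeing the data.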

Additional observations from a re-analysis of the deposited data

Results flagged for a closer look

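In 1 gene the responses went opposite ways by at least 2-fold each: Tcp10b fell in the wild type and rose in the knockout, a difference of responses of 3.05. The difference itself was not tested. Its probe lay in a small area of an array, its 2 probes differed by an SD of 2.40 and did not go the same way.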

How the results depend on the processing

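No paired analysis was possible because each group has 1 array. The counts of larger and smaller responses (409 and 352) moved by over 1.5 times under 5 alternatives. They were 114 and 80 of the same 17159 genes under normexp, which adds an offset of 50 to every signal. With probes above background on at least 1 array they were 754 and 873 of 20628 genes. They were 156 and 77 of 9823 genes at or above the 75th percentile on at least 1 array. For genes with 2 or more probes that go the same way they were 68 and 29 of 3108. For bright probes outside small areas they were 145 and 55 of 9462. These filters hold fewer genes than the main setting, so part of the lower counts comes from the smaller set. Larger responses made up 53.7% of the counted genes in the main setting, 46.3% with probes above background on at least 1 array and 72.5% for bright probes outside small areas. The share given by the 0 h arrays, 38.2%, came to 42.2% under quantile normalization, 51.4% above background on at least 1 array and 42.0% for bright probes outside small areas. Type I interferon-stimulated genes kept a median between 0.58 and 0.79 under the 11 alternatives, with 10 to 14 past 2-fold except for genes with 2 or more agreeing probes (3 of 12). Under normexp the Saa3 difference was 3.54, Oasl1 1.66, Slfn1 1.30, Shisa4 0.82, Pnpla6 -0.88 and Tmem150b -0.93. Precision is limited by the single array per group, and most at dim probes.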
